A study of Rattus norvegicus with 32 samples.

Results

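The nuclear-encoded genes of the mitochondrial respiratory chain were followed in rat liver RNA sequencing from 32 animals. Gene names were matched by their stems: Nduf for complex I, Sdha to Sdhd for complex II, Uqcr and Cyc1 for complex III, Cox4 to Cox8 for complex IV and Atp5 for complex V. The count table held 88 such names among 17327 genes, and 80 of them had 10 or more reads in at least 4 libraries. Of these 80 members, 79 passed the filter of the test and are compared below. By complex the 79 comprised 33 subunits of complex I, 4 of complex II, 9 of complex III, 10 of complex IV and 14 of complex V, and 9 assembly factors that the stems also caught. The stems thus took in genes that are not subunits, and these 9 are given apart. Cox4i2 was kept but not tested, with a median of 5 reads and at most 13. The 8 names not kept were Ndufa10l1, Cox8c, Cox6c-ps1, Cox6a2, Cox8b, Cox6b2, Ndufa4l2 and Atp5f1, and none of these had more than 12 reads in a library. Ndufa3, Ndufa13, Ndufb1, Ndufc1, Cox6b1 and Cox7a1 had no row under these symbols and were not analysed here.

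The animals were Charles River Sprague Dawley rats kept under basal conditions, and the tissue of every library was liver. Females and males, wild type (WT, Cbg+/+) or knockout (KO, Cbg-/-) for corticosteroid-binding globulin (CBG), were sampled at 30 or 60 days of age. That gave 8 groups of 4 libraries. CBG is the plasma carrier of glucocorticoids, is made by the liver and is encoded by Serpina6, whose expression was ablated with CRISPR/Cas9. The labels do not say whether the knockout animals descend from 1 founder. Each library is 1 labelled sample, and p-values measure the spread between these samples only.

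The respiratory chain lies in the inner mitochondrial membrane. Complex I takes electrons from NADH and complex II takes them from succinate. Both pass them through ubiquinone to complex III, and cytochrome c carries them on to complex IV, which reduces oxygen. The protons pumped on the way drive complex V, the ATP synthase. A few subunits are encoded by mitochondrial DNA and most, including all members described here, by nuclear genes. In hepatocytes the chain disposes of the electrons of fatty acid oxidation and supplies ATP for gluconeogenesis and urea synthesis.

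The targeted gene followed the labels. CPM is the read count scaled to a common number of gene reads per library, with library sizes adjusted by the trimmed mean of M-values (TMM). Serpina6 stood at 706 ± 174 CPM (SD, n = 4) in WT females and 58.7 ± 16.1 CPM in KO females at 30 days. In males of that age it stood at 510 ± 41.4 and 31.8 ± 6.63 CPM. At 60 days it stood at 1148 ± 249 and 106 ± 19.6 CPM in females, and at 487 ± 63.4 and 62.8 ± 24.5 CPM in males. The WT and KO ranges did not overlap in any of these comparisons, and the log2 fold changes ran from -4.00 to -2.95. Libraries held 12952000 to 21954900 reads on genes, with 16806900 or more at 30 days and 17133300 or fewer at 60 days. Age thus coincided with depth, and also with the form of the sample titles, so that age and any difference in handling cannot be told apart. The summed level of 8 hepatocyte markers was 200369 to 289575 CPM and that of 12 skeletal muscle markers 0.329 to 1.82 CPM. One library stood apart: replicate 1 of the KO females at 60 days had 2371 CPM summed over 20 photoreceptor genes, against 5.82 to 13.1 CPM in the other 3 libraries of its group. In bulk tissue, fewer cells of a type and less RNA per cell cannot be told apart.

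As a group the members varied little between libraries. Within groups their SD of log2 CPM had a median of 0.13, against 0.19 over all 11002 genes tested. Between the 8 group means a member spanned a median of 0.36 log2 units, against 0.53 over all genes. With TMM scaling, the highest of the 8 means fell in WT males at 60 days for 50 of the 79 members. The lowest fell in KO males at 30 days for 41, and the shares of all genes are not given here. A score per library, the mean over members of the log2 CPM less each gene's mean over all libraries, put 1 library well above the rest: replicate 3 of the WT males at 60 days stood at 0.34, and the other 3 of its group at 0.05 to 0.10. Replicate 4 of the WT females at 60 days, at 0.19, also stood above its group. The male library was the highest of its group in each of the 5 complexes, at 0.24 to 0.41, and the female library in all but complex II. Cytosolic ribosomal protein genes, scored in the same way, were also highest in these libraries, at 0.36 against -0.13 to -0.02 in the other WT males and 0.32 against 0.05 to 0.14 in the other WT females, and their part in the members' values was not tested.

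**Figure D1:**
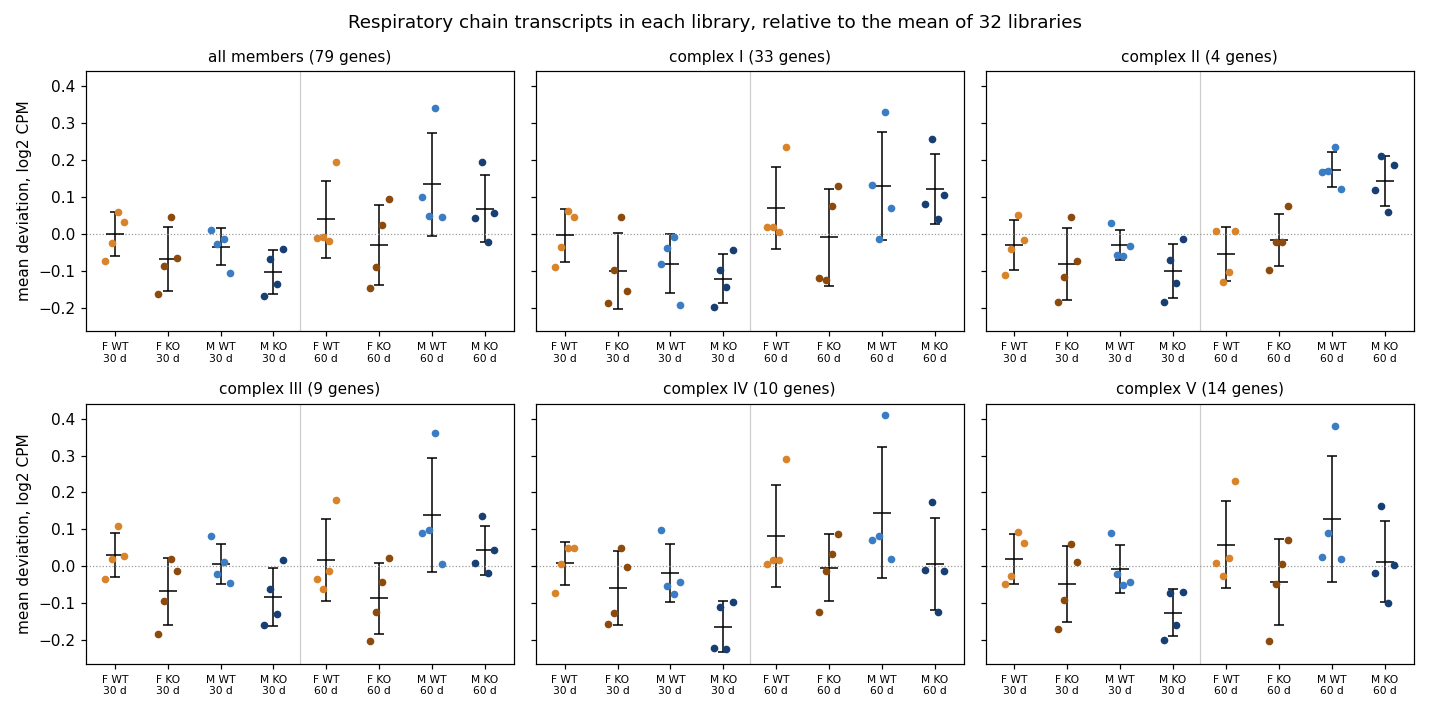
Score of the respiratory chain members in each of the 32 libraries (vertical axis, log2 units relative to the mean over all libraries; horizontal axis, the 8 groups), for all tested members and for complexes I to V. Each point is 1 library. The highest point over all members is replicate 3 of the WT males at 60 days at 0.34, and the KO males at 30 days lie lowest on average, at -0.10.

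The clearest differences were between the ages, and in males. Of the 79 members, 37 (46.8%) were higher at 60 than at 30 days in WT males and 0 were lower, at a Benjamini-Hochberg adjusted p below 0.05 in edgeR's quasi-likelihood test; with scaling by library size alone, without the trimmed mean of M-values (TMM), the split became 7 higher and 8 lower. Over all genes tested, 15.7% were higher and 15.8% lower in that comparison. In KO males 31 members (39.2%) were higher and 1 was lower, against 14% and 14.5% of all genes, and by library size alone the split was 4 and 11. The median member differed by 0.20 log2 units in each genotype, while the median of all genes was -0.01 in each. By library size alone the median of all genes was -0.17 in WT and -0.21 in KO males, and -0.11 and -0.16 in females. The share of all genes called under that scaling is not given here. The members' median lay 0.21 above that of all genes in males of each genotype. Scaling shifts all genes of a library alike, so this gap stays nearly the same by construction and cannot show which scaling is right. As a share of gene reads, the members together had medians of 0.965% at 30 and 0.934% at 60 days in WT males, and of 0.967% and 0.912% in KO males. The summed level of 10 stellate cell markers also moved with age, from 904 to 1514 CPM at 30 days to 311 to 672 CPM at 60 days, and its part in the result was not tested.

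The count in WT males leaned on 1 library. Without replicate 3 of the WT males at 60 days it was 16, and leaving out any other single library of the comparison left it at up to 38. In KO males the lowest count was 20, without replicate 1 of the KO males at 30 days, and the highest 32. The WT and KO comparisons share no library, and 30 members were higher in both, which is 30 of 37 and 30 of 31. Age coincided with depth and title form in both comparisons, so they are not independent in that respect. The share of all genes higher in both is not given here. In 29 members of WT males and 33 of KO males the 4 libraries of 60 days all lay above the 4 of 30 days, against 14.6% and 15.2% of all genes. Ambiguous reads made up 0.554% to 0.648% of the reads of 60-day males and 0.262% to 0.466% in all other libraries, and their part in the result was not tested.

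**Figure D2:**
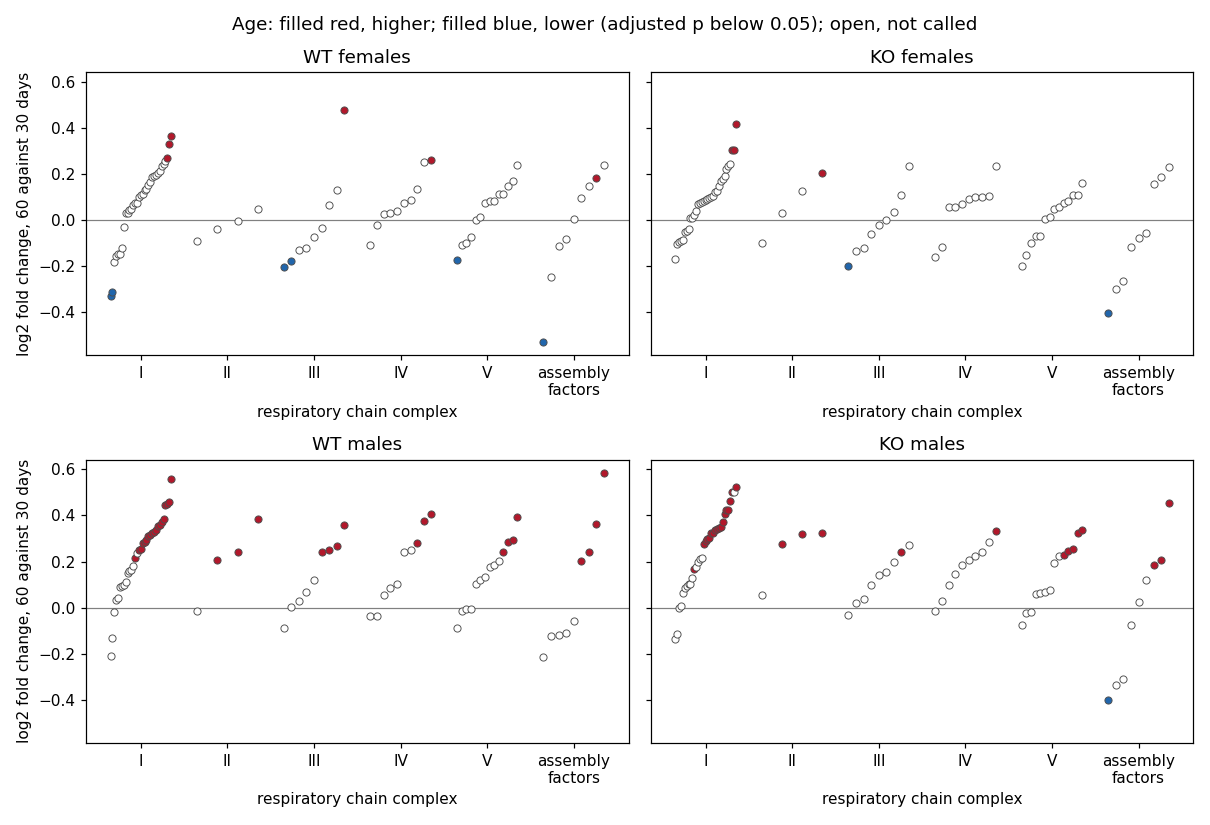
Log2 fold change of each member between 60 and 30 days (vertical axis) by complex (horizontal axis), in 4 panels for sex and genotype, with TMM scaling. Each point is 1 gene, filled red where higher and blue where lower at adjusted p below 0.05, open where not called. Red points number 37 in WT males and 31 in KO males, and 6 and 4 in females; by library size alone they number 7, 4, 3 and 1.

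Complex I, the entry point for NADH, held most of these genes. In WT males 19 of its 33 subunits were higher at 60 days and in KO males 18 of 33, with median log2 fold changes of 0.26 and 0.29 with TMM scaling. Among the 26 supernumerary subunits, which surround and stabilise the catalytic core, 16 were higher in each genotype. Ndufa7, a supernumerary subunit, had the smallest adjusted p of all members in both genotypes. It stood at 37.3, 36.6, 38.0 and 34.2 CPM in the 4 WT males at 30 days and at 49.9, 49.5, 63.3 and 52.8 CPM at 60 days. In KO males it stood at 31.1, 34.7, 33.7 and 36.7 CPM and then at 48.6, 49.0, 44.9 and 50.3 CPM. Every 60-day male lay above every 30-day male. The log2 fold change was 0.56 (SE 0.09, edgeR adjusted p = 1.15e-05) in WT and 0.50 (SE 0.09, edgeR adjusted p = 6.59e-05) in KO males.

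Ndufa11, a membrane arm subunit that meets complex III in the supercomplex, stood at 85.4, 81.9, 78.8 and 79.3 CPM in WT males at 30 days and at 115, 101, 129 and 98.4 CPM at 60 days. The 2 ages did not overlap, and the log2 fold change was 0.45 (SE 0.08, edgeR adjusted p = 6.8e-05). In KO males it went from 75.7 to 77.7 CPM to 91.6 to 109 CPM, at a log2 fold change of 0.35. Ndufa2, a small matrix-facing subunit, rose by 0.46 on the log2 scale in WT males (SE 0.10, edgeR adjusted p = 0.000587). Its 60-day libraries stood at 46.8, 44.5, 68.0 and 45.8 CPM and its 30-day libraries at 40.5, 38.1, 37.1 and 33.9 CPM, with no overlap and with replicate 3 far above the others.

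In KO males the membrane arm subunits Ndufb8 and Ndufb9 were among the leading genes. Ndufb8 stood at 59.7, 75, 62.2 and 68.9 CPM at 30 days and at 85.6, 103, 95.1 and 98.2 CPM at 60 days. Its log2 fold change was 0.52 (SE 0.11, edgeR adjusted p = 0.000587), and in WT males it was 0.36 (edgeR adjusted p = 0.0133). Ndufb9 went from 91.4, 101, 90.1 and 101 CPM to 125, 145, 116 and 128 CPM in KO males, again without overlap, at a log2 fold change of 0.43 (SE 0.09, edgeR adjusted p = 0.000869). Ndufa7, Ndufa11, Ndufa2 in WT males and Ndufa7, Ndufb8, Ndufb9 in KO males kept their calls in each of the 15 alternatives, library size alone included.

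Complex II, succinate dehydrogenase, links the chain to the citric acid cycle and consists of nuclear products alone. Of its 4 genes, Sdha, Sdhb and Sdhc were higher at 60 days in males of both genotypes with TMM scaling. Sdha, the flavoprotein that oxidises succinate, stood at 331, 325, 323 and 333 CPM in WT males at 30 days and at 406, 397, 362 and 386 CPM at 60 days. In KO males it stood at 306, 332, 320 and 335 CPM and then at 398, 394, 394 and 433 CPM. Neither comparison overlapped, with log2 fold changes of 0.24 (SE 0.07, edgeR adjusted p = 0.00648) and 0.33 (SE 0.07, edgeR adjusted p = 0.000443); the call in KO males was lost by library size alone. Sdhc, a membrane anchor, differed by 0.21 and 0.28. Sdhd, the other anchor, had a log2 fold change of -0.01 in WT males (SE 0.06, edgeR adjusted p = 0.887) and was called in no comparison of 2 groups.

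Sdhb, the iron-sulfur subunit of complex II, and Uqcrc1, a matrix-facing subunit of complex III, were the members whose age difference itself differed between the sexes. Sdhb stood at 129, 118, 114 and 119 CPM in WT males at 30 days and at 158, 153, 166 and 150 CPM at 60 days. WT females stood at 112, 116, 133 and 126 CPM at 30 days and at 137, 118, 120 and 130 CPM at 60 days. The older WT males lay above all 12 other WT libraries, while the females of the 2 ages overlapped. Its log2 fold change with age was 0.39 in WT males (SE 0.08, edgeR adjusted p = 0.000202) and 0.05 in WT females (SE 0.08, edgeR adjusted p = 0.659). In KO males Sdhb went from 107, 115, 117 and 125 CPM to 149, 155, 130 and 145 CPM, again without overlap, at 0.32 (edgeR adjusted p = 0.00171). The difference between the sexes in WT animals, the age-by-sex interaction, was 0.34 (SE 0.11, edgeR adjusted p = 0.0418).

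Uqcrc1 stood at 187, 171, 193 and 171 CPM in WT males at 30 days and at 209, 210, 245 and 203 CPM at 60 days. In WT females it stood at 185, 188, 191 and 186 CPM and then at 200, 166, 170 and 175 CPM. The older WT males again lay above all other WT libraries. The log2 fold change was 0.27 in males (SE 0.07, edgeR adjusted p = 0.00608) and -0.07 in females (SE 0.07, edgeR adjusted p = 0.465), and the interaction was 0.34 (SE 0.10, edgeR adjusted p = 0.0354). These were 2 of 79 members, against 9% of all genes called in that interaction, so the members' share lay below that of all genes. Sdhb kept the call in 11 of 22 alternatives and Uqcrc1 in 13 of 22, and each lost it without replicate 3 of the WT males at 60 days. In KO animals 0 members were called in the same interaction by edgeR, against 4.69% of all genes, with 11 at an unadjusted p under 0.05; DESeq2 called 1 and limma-voom 0. There Sdhb had an interaction of 0.19 (SE 0.11, edgeR adjusted p = 0.373) and Uqcrc1 of 0.13 (SE 0.10, edgeR adjusted p = 0.572). Of the 79 interactions 66 were above 0 in WT and 70 in KO animals, with medians of 0.13 and 0.14.

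**Figure D3:**
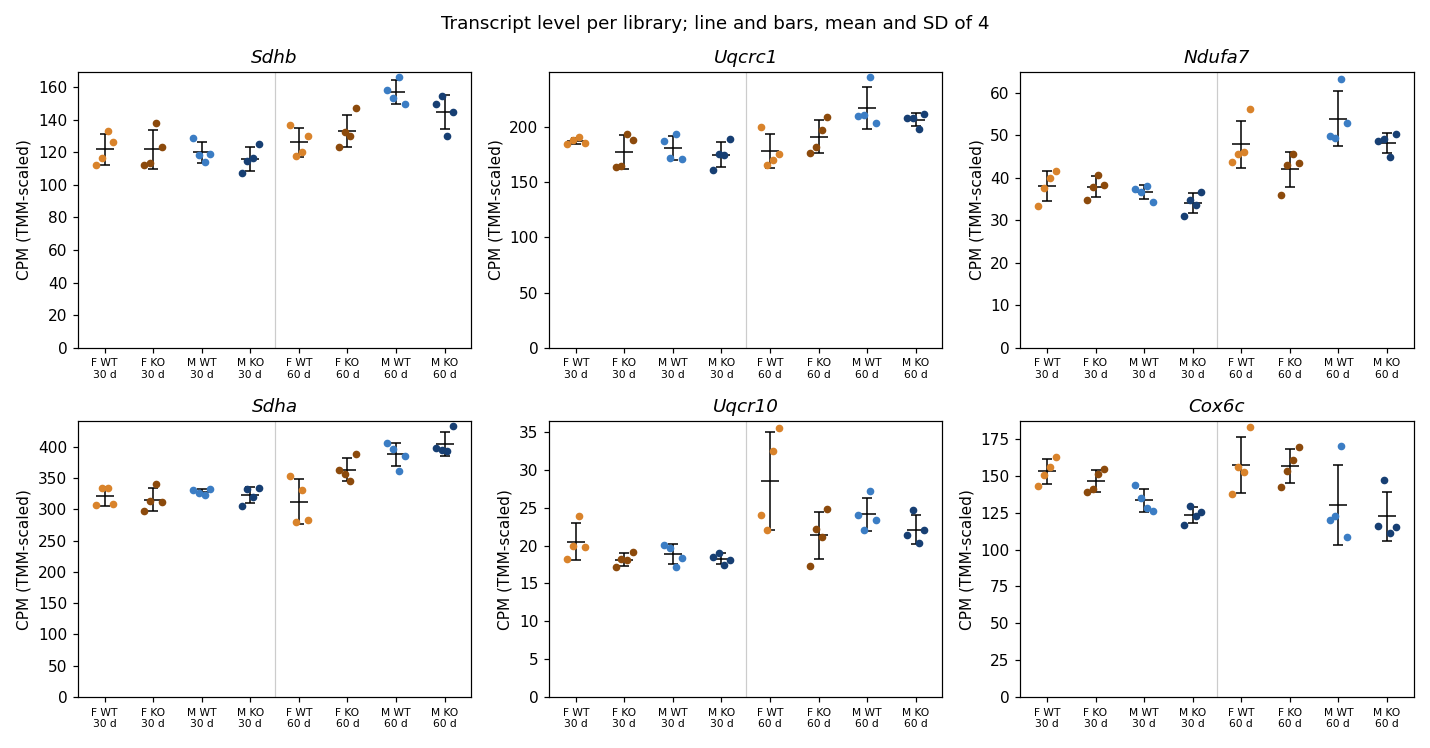
Level in CPM (vertical axis) of Sdhb, Uqcrc1, Ndufa7, Sdha, Uqcr10 and Cox6c in each library by group (horizontal axis), with group means as bars. For Sdhb the WT males at 60 days lie at 150 to 166 CPM and the other WT libraries at 112 to 137 CPM.

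Promoters are shown here of Sdhb and Uqcrc1, the members called in the age-by-sex interaction in WT animals. Both were among the 30 members that were higher in older males of both genotypes. The sequences are from RefSeq on the GRCr8 assembly and run 5′ to 3′ on the strand of the gene, from 250 bases before the annotated start to 50 after it. Capitals mark matches, on either strand, to short motifs of 4 factors known to act on respiratory chain genes. Sdhb lies at chr5:158547684-158547983 on the plus strand, with a match to the core of the nuclear respiratory factor 1 (NRF1) motif and a match to an ETS motif of the kind bound by GABPA. Uqcrc1 lies at chr8:118467973-118468272 on the plus strand, with the NRF1 core read on the reverse strand and a YY1 motif.
Sdhb: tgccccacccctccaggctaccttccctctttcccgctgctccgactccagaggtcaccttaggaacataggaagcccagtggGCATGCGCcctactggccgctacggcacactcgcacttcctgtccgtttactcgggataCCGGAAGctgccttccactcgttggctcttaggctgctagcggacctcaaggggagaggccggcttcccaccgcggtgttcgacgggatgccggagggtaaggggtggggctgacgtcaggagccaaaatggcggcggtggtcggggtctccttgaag
Uqcrc1: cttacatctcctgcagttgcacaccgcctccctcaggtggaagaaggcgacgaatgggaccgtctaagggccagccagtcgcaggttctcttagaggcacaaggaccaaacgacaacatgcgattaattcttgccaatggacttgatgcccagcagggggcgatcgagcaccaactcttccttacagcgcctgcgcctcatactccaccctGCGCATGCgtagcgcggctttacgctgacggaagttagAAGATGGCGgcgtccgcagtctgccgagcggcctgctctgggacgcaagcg
The letters searched were GCATGCGC for NRF1, CCGGAAG for ETS, AAGATGGCG for YY1 and AAGGTCA for estrogen-related receptors (ERR), with both strands read and matches of different motifs free to overlap at their ends. All 80 members were found among the RefSeq genes, 64 by symbol and 16 by synonym, and 68 had a promoter window. The NRF1 core was in 10 of the 68 (14.7%) and in 3.32% of the windows of 19005 protein-coding genes. The YY1 motif was likewise in 10 (14.7%, against 2.33%), the ETS motif in 20 (29.4%, against 11.6%) and the ERR motif in 11 (16.2%, against 4.05%). Of the 27 windows of members higher at 60 days in males of both genotypes, the YY1 motif was in 6 and the ETS motif in 6, and of the 41 others in 4 and 14. The NRF1 core, present in both promoters shown, was in only 5 of the 27 and 5 of the 41, and the ERR motif in 4 and 7. A match says only that these letters occur in the window.

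Complex III passes electrons from ubiquinol to cytochrome c. Of its 9 genes 4 were higher with age in WT males (Uqcrc1, Uqcr10, Uqcrq and Uqcr11) and Uqcrc1 alone in KO males, with medians of 0.12 and 0.14 with TMM scaling. Cyc1, the cytochrome c1 subunit that hands the electron on, was called in no comparison of 2 groups. Complex IV, cytochrome c oxidase, had 3 of 10 higher in WT males (Cox6a1, Cox8a and Ndufa4) and Ndufa4 alone in KO males. Ndufa4, once counted as a complex I subunit and now placed with complex IV, stood at 194, 171, 186 and 185 CPM in WT males at 30 days and at 207, 216, 262 and 209 CPM at 60 days. The ages did not overlap, and the log2 fold change was 0.28 in WT (SE 0.08, edgeR adjusted p = 0.00567) and 0.33 in KO males (SE 0.08, edgeR adjusted p = 0.00142).

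In complex V, 4 of 14 genes were higher with age in WT males (Atp5d, Atp5e, Atp5j2 and Atp5l), and the same 4 and Atp5j in KO males, with medians of 0.15 and 0.14 with TMM scaling. Atp5d and Atp5e encode small subunits of the central stalk. The catalytic pair Atp5a1 and Atp5b and the rotor shaft gene Atp5c1 were not called in males. Of the 9 assembly factors, 4 were higher in WT males (Ndufaf3, Atp5sl, Cox7a2l and Atp5s) and 3 in KO males (Atp5sl, Cox7a2l and Atp5s). Atp5s, also known as Dmac2l, had the largest log2 fold change of all members in WT males, at 0.59 (SE 0.13, edgeR adjusted p = 0.00112). Its level went from 6.29, 5.45, 5.37 and 5.38 CPM to 8.56, 7.90, 8.90 and 8.40 CPM, without overlap. Ndufaf4 had the lowest value there, at -0.21, and was not called (SE 0.18, edgeR adjusted p = 0.402). Ndufaf6, a complex I assembly factor, was the 1 lower member in KO males, at -0.40 (SE 0.15, edgeR adjusted p = 0.044), and it kept that call in 6 of 15 alternatives.

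Females showed fewer and mixed differences with age. In WT females 6 members were higher and 6 lower at 60 days with TMM scaling, against 16% and 17.1% of all genes, and by library size alone 3 and 18. In KO females 4 were higher and 2 lower, against 10.6% and 12.1%, and by library size alone 1 and 19. That count of 6 was 2 without replicate 1, 2 or 4 of the KO females at 30 days, and 7 without replicate 1 of the KO females at 60 days, the library with photoreceptor transcripts. With TMM scaling the members' shares lay below those of all genes in each direction. By library size alone the median of all genes was -0.11 in WT and -0.16 in KO females. The share of all genes called under that scaling is not given here. The median member stood at 0.07 and 0.06 log2 units with TMM and at -0.05 and -0.09 by library size alone. Ndufa2 was higher and Uqcrfs1 lower in both genotypes, which share no library. How many of all genes were called alike in both is not given here.

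In WT females the lower members were 2 complex I subunits, 2 of complex III, 1 of complex V and an assembly factor. Ndufs1, the largest core subunit of complex I and the holder of several iron-sulfur clusters, went from 158, 155, 146 and 149 CPM to 124, 121, 95.7 and 143 CPM. The ages did not overlap, and the log2 fold change was -0.33 (SE 0.08, edgeR adjusted p = 0.00225). Ndufaf7, a methyltransferase that acts in the assembly of complex I, went from 8.88, 10.6, 9.71 and 9.08 CPM to 6.54, 7.06, 4.88 and 8.07 CPM, at a log2 fold change of -0.53 (SE 0.12, edgeR adjusted p = 0.00145). Atp5a1, the alpha subunit of the catalytic head, fell by 0.17 on the log2 scale, from 797 to 867 CPM down to 688 to 788 CPM (SE 0.05, edgeR adjusted p = 0.0134). Uqcrfs1, the Rieske iron-sulfur protein of complex III, fell by 0.20 in WT females (edgeR adjusted p = 0.02) and by 0.20 in KO females (edgeR adjusted p = 0.0327). Ndufa12 and Uqcrc2 were the other lower genes.

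The higher members in WT females were led by Uqcr10, a small subunit of complex III. It stood at 18.2, 19.998, 23.97 and 19.8 CPM at 30 days and at 24.02, 22.1, 32.4 and 35.5 CPM at 60 days, so that the ages overlapped. Its log2 fold change was 0.48 (SE 0.12, edgeR adjusted p = 0.00198). Ndufa6 and Ndufa7 differed by 0.36 and 0.33 without overlap (edgeR adjusted p = 0.00315 and 0.0042), and Ndufa2, Atp5sl and Cox8a were also called. All 6 genes that were higher in WT females were among the 37 that were higher in WT males, and no library is shared. The share of all genes higher in both sexes is not given here. In KO females the higher genes were Ndufb8, Ndufa2, Ndufs5 and Sdha. All 4 were among the 31 of KO males, again with no share of all genes given. Ndufb8 led them, from 63.1, 65.2, 76.2 and 74.8 CPM to 74.4, 101, 105 and 92.7 CPM, at a log2 fold change of 0.42 (SE 0.11, edgeR adjusted p = 0.00594), with overlap. Ndufaf6 was lower in KO females, at -0.40 (edgeR adjusted p = 0.048).

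At 60 days some members were called between the sexes. In WT animals 16 members (20.3%) were higher in males and 0 lower, against 13.7% and 12.7% of all genes. In KO animals 5 were higher and 1 was lower, against 9.63% and 8.89% of all genes, a share of members below that of all genes. Without replicate 1 of the KO females, the library with photoreceptor transcripts, or without replicate 2 of the KO males the count in KO animals was 3. Without replicate 4 of the KO females it was 10, and with only the libraries of that age in the fit it was 2. The median member was 0.14 higher in WT and 0.09 higher in KO males, and 0.10 and 0.08 by library size alone. In 8 members all WT males lay above all WT females, a share below the 11.8% of all genes. The WT males at 60 days also enter the age comparison above, so the 2 sets of values are not independent. Without replicate 3 of those males the count in WT animals was 7, and without replicate 4 of the WT females it was 24. With only the 8 libraries compared in the fit it was 2, and with the 16 libraries of that age 7. The sex-by-genotype interaction called 0 members by edgeR at either age (0 and 1 at an unadjusted p under 0.05), and DESeq2 and limma-voom called 0, against 0% and 0.136% of all genes by edgeR.

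By complex, the genes higher in WT males at 60 days were 5 subunits of complex I (Ndufb6, Ndufb10, Ndufs4, Ndufs8 and Ndufv3), 3 of complex II, 3 of complex III (Uqcrc1, Uqcrfs1 and Uqcrq), 3 of complex IV (Cox6a1, Cox7b and Ndufa4) and the assembly factors Ndufaf7 and Atp5s. No subunit of complex V was called. Sdha stood at 352, 280, 331 and 284 CPM in WT females at 60 days and at 406, 397, 362 and 386 CPM in WT males. The sexes did not overlap, and the log2 fold change was 0.31 (SE 0.07, edgeR adjusted p = 0.00066). Sdhb differed by 0.32 (SE 0.08, edgeR adjusted p = 0.00194), and Uqcrq, a small complex III subunit near the cytochrome b, by 0.34 (SE 0.08, edgeR adjusted p = 0.00263), both without overlap. Uqcrq stood at 145, 134, 144 and 155 CPM in WT females and at 174, 170, 227 and 160 CPM in WT males. Uqcrfs1 stood at 132, 148, 123 and 148 CPM in WT females and at 165, 170, 174 and 154 CPM in WT males, at a log2 fold change of 0.27 (SE 0.07, edgeR adjusted p = 0.0034).

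In KO animals at 60 days Uqcrfs1 was again higher in males, with 149, 168, 146 and 163 CPM against 133, 121, 140 and 132 CPM in females. The log2 fold change was 0.25 (SE 0.07, edgeR adjusted p = 0.00856), without overlap. Ndufb6, a membrane arm subunit of complex I, stood at 57.4, 66.1, 56.2 and 53.6 CPM in KO males and at 42.2, 44.9, 49.1 and 49.6 CPM in KO females. It differed by 0.33 (SE 0.09, edgeR adjusted p = 0.00851), without overlap, and kept the call in each of 16 alternatives. Sdhc, Cox7b and Ndufa4 were the other higher genes, at 0.25, 0.25 and 0.22. All 5 were among the 16 of WT animals, and the share of all genes called in both genotypes is not given here. Cox6c, a small complex IV subunit, was lower in KO males, with 116, 147, 111 and 116 CPM against 142, 153, 161 and 170 CPM in KO females. The ranges overlapped through replicate 2 of the males, and the log2 fold change was -0.36 (SE 0.10, edgeR adjusted p = 0.0141). In WT animals the log2 fold change of Cox6c was -0.27 (SE 0.10, edgeR adjusted p = 0.05002), which missed the threshold narrowly.

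At 30 days no member was called between the sexes by edgeR in either genotype, against 2.07% of all genes in WT and 2.24% in KO animals. At an unadjusted p under 0.05 there were 1 and 2, and DESeq2 and limma-voom each called 0. The largest values were those of Ndufs6, at -0.87 in WT (SE 0.86) and 0.33 in KO animals (SE 0.85), and of Ndufaf4, at 0.52 in WT animals (SE 0.18, edgeR adjusted p = 0.172). Cox6c stood at 117, 130, 123 and 126 CPM in KO males and at 139, 141, 151 and 154 CPM in KO females at 30 days, without overlap, at -0.24 (SE 0.10, edgeR adjusted p = 0.277).

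Loss of CBG left few calls among these genes. Between KO and WT, 0 of 79 members were called by edgeR in females at 30 days, 0 in males at 30 days and 0 in males at 60 days, against 0.3%, 0.0545% and 0.209% of all genes. DESeq2 and limma-voom also called 0 in each. Unadjusted p-values under 0.05 numbered 0, 8 and 13. In females at 60 days 2 members were higher and 2 lower in the KO, against 3.48% and 3.29% of all genes, so that the members' share was below that of all genes in each direction. Of the 79 log2 fold changes 70 were below 0 in females at 30 days, 71 in males at 30 days, 59 in females at 60 days and 67 in males at 60 days. The medians were -0.06, -0.10, -0.06 and -0.12, while the medians of all genes lay at 0.00 to 0.01. By library size alone the medians of the members were -0.03, -0.04, -0.07 and -0.08. Without replicate 3 of the WT males at 60 days the median in that comparison was -0.02. The neighbouring values of members share each library's scaling, and no test was made of the medians.

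**Figure D4:**
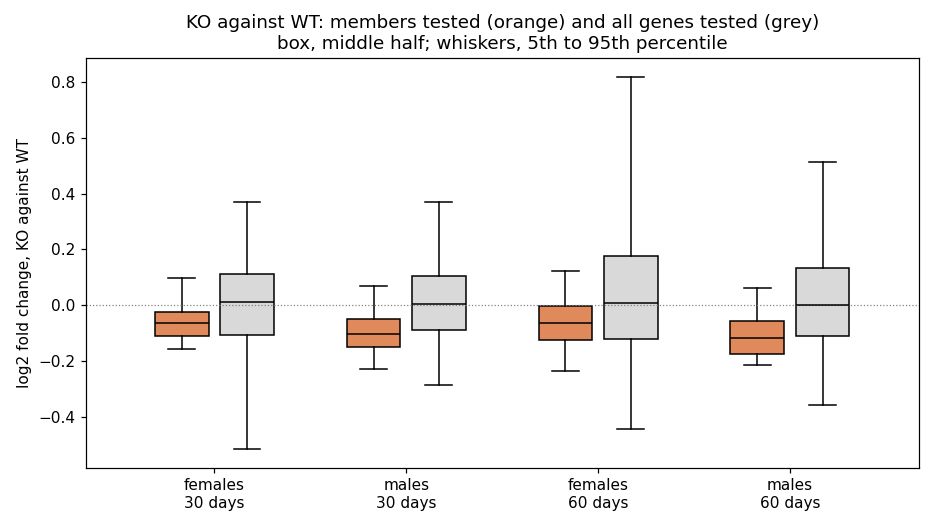
Log2 fold change of KO against WT (vertical axis) in each sex and age (horizontal axis), for the 79 members (orange) and all 11002 genes tested (grey), with TMM scaling. Boxes span the quartiles with the median as a line, and whiskers the 5th to 95th percentile. The medians of the members lie at -0.06 to -0.12 and those of all genes at 0.00 to 0.01.

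In males at 30 days 18 members had all 4 KO libraries below all 4 WT libraries, against 3.49% of all genes, and 0 had them above, against 2.94%. They comprised 9 subunits of complex I, 2 of complex III, 3 of complex IV and 4 of complex V. None passed the adjusted threshold. Cox7a2, the complex IV subunit at the contact with complex III, had the largest of these differences. It stood at 36.4, 32.8, 29.9 and 29.9 CPM in WT males and at 24.1, 27.6, 25.7 and 27.4 CPM in KO males, at -0.30 (SE 0.11, edgeR adjusted p = 0.657). Cytosolic ribosomal protein genes, taken as a score in the same way, also stood lower in the KO at 30 days, at -0.14 against 0.03 in males and -0.11 against 0.05 in females, and their part in the result was not tested. A score of 11 circadian clock genes stood at -1.38 in KO and -1.79 in WT males at 30 days, and with it as a covariate the count of called members was 0. In females at 30 days Ndufaf4, a complex I assembly factor, had the highest value, at 0.34 (SE 0.18, edgeR adjusted p = 0.519), with no overlap between genotypes, and in males at 60 days Ndufaf6 stood at -0.34 (SE 0.15, edgeR adjusted p = 0.406).

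The 4 genes called in females at 60 days belonged to 4 different places. Sdha stood at 352, 280, 331 and 284 CPM in WT and at 363, 356, 345 and 389 CPM in KO females, with overlap, at 0.22 (SE 0.07, edgeR adjusted p = 0.0429). Uqcr10 stood at 24.02, 22.1, 32.4 and 35.5 CPM in WT and at 17.3, 22.2, 21.2 and 24.8 CPM in KO females, with overlap, at -0.42 (SE 0.12, edgeR adjusted p = 0.0294). The difference for Uqcr10 lay mainly in replicates 3 and 4 of the WT group. Atp5o, the subunit that joins the peripheral stalk to the head of ATP synthase, stood at 152, 141, 140 and 174 CPM in WT and at 105, 119, 139 and 135 CPM in KO females, without overlap, at -0.29 (SE 0.09, edgeR adjusted p = 0.0475). Ndufaf7 stood at 6.54, 7.06, 4.88 and 8.07 CPM in WT and at 8.40, 7.35, 9.84 and 10.2 CPM in KO females, with overlap, at 0.43 (SE 0.13, edgeR adjusted p = 0.0353).

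Each of these 4 calls was lost without replicate 1 of the KO females, the library with photoreceptor transcripts, and the count was then 0. It was also 0 with only the libraries of that age or only the 8 compared in the fit. The calls leaned on other libraries too. With 1 of the 8 libraries left out at a time, Ndufaf7 kept its call in 2 of 8 fits, Sdha and Atp5o in 3 and Uqcr10 in 4. The clock score was -1.23 ± 0.77 in KO and -2.21 ± 0.44 in WT females at 60 days (SD, n = 4), and with it as a covariate the count was 0. The age-by-genotype interaction called 0 members by edgeR in females and 0 in males (3 and 0 at an unadjusted p under 0.05), as did DESeq2 and limma-voom, against 2.96% and 0.00909% of all genes by edgeR.

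Some subunits exist as tissue isoforms, and those of liver were the ones read. Cox4i1, the common form of the largest nuclear subunit of complex IV, stood at 290 to 476 CPM over the 32 libraries and was called in no comparison of 2 groups, while Cox4i2, its oxygen-regulated form of the lung, stood at 0 to 0.90 CPM. The muscle forms Cox6a2 and Cox8b had at most 2 reads in a library. Their liver partners were called with age in WT males with TMM scaling: Cox6a1 went from 143, 131, 132 and 125 CPM to 155, 150, 198 and 202 CPM, at 0.41 (SE 0.09, edgeR adjusted p = 0.00124), and Cox8a from 104, 103, 96.1 and 99.3 CPM to 133, 119, 156 and 113 CPM, at 0.37 (SE 0.09, edgeR adjusted p = 0.0027). The ages did not overlap for either gene. In KO males they did not overlap either, at log2 fold changes of 0.22 for Cox6a1 (SE 0.09, edgeR adjusted p = 0.0725) and 0.24 for Cox8a (SE 0.09, edgeR adjusted p = 0.0546), which missed the threshold. Cox7a2 was called in no comparison of 2 groups, and Cox7a2l, the related factor that joins complexes III and IV, differed by 0.24 in WT males (edgeR adjusted p = 0.0125) and 0.21 in KO males (edgeR adjusted p = 0.0329). Ndufa4l2 and Cox6b2, forms seen elsewhere, had at most 4 and 12 reads. Atp5g1, Atp5g2 and Atp5g3 encode the same mature subunit c of the ATP synthase ring. They stood at 102 to 207, 130 to 197 and 181 to 295 CPM and were called in no comparison of 2 groups. Reads that such close copies or Cox6c and its pseudogene share could be split in counting, so the single values of these genes are uncertain.

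Ndufs6 varied more than any other member. It encodes a zinc-binding subunit at the base of the peripheral arm of complex I. Its within-group SD of log2 CPM was 1.79, and that of the next member, Ndufaf4, was 0.27. In 26 libraries it had 10 or more reads, and in 6 it was at or near 0. WT females at 30 days stood at 5.81, 5.18, 6.20 and 5.04 CPM and KO females at 4.94, 4.84, 6.37 and 0.108 CPM. WT males of that age stood at 0.105, 5.45, 6.25 and 0.157 CPM and KO males at 5.04, 5.09, 4.89 and 5.61 CPM. At 30 days the low libraries were thus 1 KO female and 2 WT males. At 60 days WT females stood at 5.83, 5.98, 5.93 and 5.00 CPM and KO females at 4.95, 0.258, 5.47 and 5.28 CPM. WT males of 60 days stood at 8.89, 0, 0.191 and 5.51 CPM and KO males at 5.68, 7.54, 9.93 and 5.98 CPM. The low libraries lay in 4 groups, the KO females and the WT males of both ages. No library of WT females or KO males was low at either age. Between 0.258 and 4.84 CPM there was no library. Ndufs6 had the largest or smallest fitted value in several comparisons, such as 1.03 (SE 0.88, edgeR adjusted p = 0.736) between KO and WT males at 60 days, and it was called in none. The promoter of Ndufs6 is given as a reference for the gene that stands apart, at chr1:31797150-31797449 on the plus strand of GRCr8, from RefSeq. Capitals mark the YY1 motif and the ERR motif, the latter on the reverse strand.
Ndufs6: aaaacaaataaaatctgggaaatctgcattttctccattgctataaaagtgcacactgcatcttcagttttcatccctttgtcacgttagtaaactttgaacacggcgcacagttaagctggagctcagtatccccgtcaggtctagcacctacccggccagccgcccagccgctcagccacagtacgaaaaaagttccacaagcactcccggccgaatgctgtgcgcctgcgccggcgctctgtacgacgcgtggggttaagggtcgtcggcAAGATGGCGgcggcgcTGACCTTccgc
The sequence is that of the reference, and the animals' own sequence was not analysed here.

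**Figure D5:**
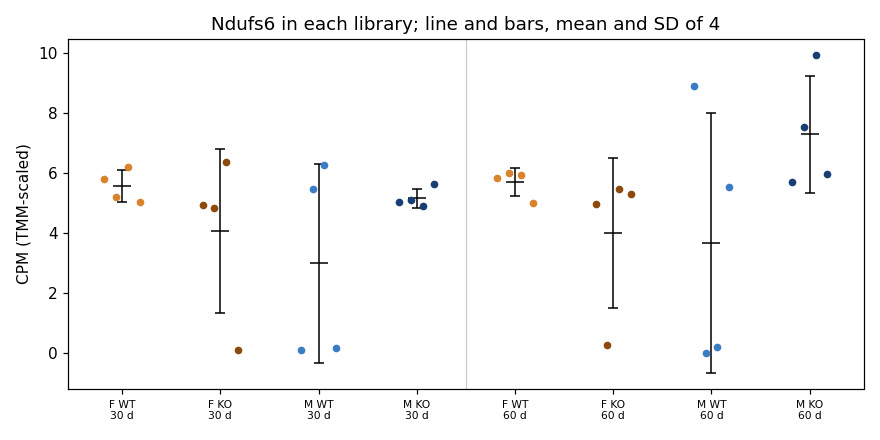
Level of Ndufs6 in CPM (vertical axis) in each of the 32 libraries by group (horizontal axis). Each point is 1 library. The 6 low points lie at 0 to 0.258 CPM and the other 26 at 4.84 to 9.93 CPM.

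Across the study, 29 of the 79 members were called in none of the 12 comparisons of 2 groups. The share of all genes called in none of them is not given here. These 29 members included the catalytic beta subunit Atp5b, the rotor shaft Atp5c1, all 3 subunit c genes and the cytochrome c1 gene Cyc1. Also among them were the complex IV genes Cox4i1, Cox5a, Cox5b, Cox7a2 and Cox7c, and the complex I genes Ndufv1, which holds the flavin, and Ndufs3. Ndufv1 stood at 130 to 181 CPM over the 32 libraries.

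Other genes of mitochondrial energy metabolism were read from lists for comparison, all with TMM scaling. Of 14 genes of fatty acid oxidation, which feeds electrons into the chain, 11 were higher and 0 lower in WT males than in WT females at 60 days, with a median of 0.42, and 6 and 0 in KO animals, with a median of 0.30. Acadm, the medium-chain acyl-CoA dehydrogenase, differed by 0.71 and Hadh by 0.79 in WT animals. With age 6 and 5 of the 14 were higher in WT and KO males and 0 lower, and in females of each genotype 1 was higher and 2 lower. In KO against WT females at 60 days 4 were higher and 1 lower. Of 17 genes of the citric acid cycle 4 were higher and 5 lower with age in WT males, and 3 and 3 in KO males. Idh2, the mitochondrial NADP-dependent isocitrate dehydrogenase, was lower at 60 days in all 4 comparisons, at -1.30 to -0.92.

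Of 67 genes of the mitochondrial ribosome, which makes the subunits encoded in mitochondrial DNA, 9 were higher and 2 lower with age in WT males and 7 and 5 in KO males. Of 72 cytosolic ribosomal protein genes 3 were higher and 2 lower in WT males and 6 and 1 in KO males, but 21 and 2 in WT females and 17 and 1 in KO females. Of 12 genes of coenzyme Q synthesis 0 were higher and 1 lower with age in WT males and 1 and 1 in KO males, and of 22 genes of protein import into mitochondria 1 and 3, and 2 and 1. Of 13 assembly factors of complex I, 6 of them also members, 1 was higher and 1 lower with age in WT males, and 0 and 4 in WT females. Of 25 for complexes II to V, 4 were higher and 2 lower in WT males and 7 and 1 in KO males, and 7 were higher and 1 lower in males among WT animals at 60 days. Sco1, a copper chaperone for complex IV, differed there by 0.67 and in KO animals by 0.43. Among 14 cytochrome c and carrier genes 0 were higher with age in any comparison and 3 or 4 were lower. Atpif1, the inhibitor of ATP synthase, fell by 0.55 in WT males (edgeR adjusted p = 0.000575) and by 0.58 in KO males. Cycs, cytochrome c itself, was higher in males than in females at 60 days, by 0.42 in WT (edgeR adjusted p = 0.00165) and 0.49 in KO animals.

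Of 17 regulators of mitochondrial biogenesis 1 was higher and 5 lower with age in WT males, and 0 and 3 in KO males, with TMM scaling. Ppargc1a, the coactivator PGC-1alpha, was lower at 60 days by -1.59 in WT males (SE 0.36, edgeR adjusted p = 0.00125) and -1.69 in KO males (SE 0.35, edgeR adjusted p = 0.000507). It was also lower in WT males than in WT females at 60 days, at -1.49 (SE 0.37, edgeR adjusted p = 0.00327). Tfb1m, a mitochondrial ribosomal RNA methyltransferase, was lower at 60 days in all 4 comparisons, at -0.60 in WT males (edgeR adjusted p = 2.63e-05). Gabpa, the DNA-binding subunit of the ETS factor GABP, differed by -0.28 in WT males, and Nrf1 by -0.39 in KO males. Esrra, which encodes an estrogen-related receptor, differed by 0.25 in WT males and by 0.45 in KO females. These are levels of messenger RNA in the same libraries, and any relation to the members was not tested.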

How the data were processed

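Liver RNA from 32 rats was sequenced, per the labels' protocols from Trizol extracts with a stranded messenger RNA kit. Raw counts of reads per gene were deposited as 1 table. The submitters' processing notes name the assembly Rnor_5.0, STAR, limma and Cufflinks, with no role, version or strand setting. Lines for no feature (18.0% to 21.2% of reads) and ambiguous reads (0.262% to 0.648%) stayed out of library sizes and tests. The deposited log2 table was not used.

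The counts were tested in R 4.3.3 with edgeR 4.0.16: filterByExpr (minimum count 10), TMM scaling, and 1 mean per group (8 groups, 32 libraries, 24 residual degrees of freedom) in a quasi-likelihood fit with the robust option. Benjamini-Hochberg adjustment ran over all 11002 genes tested, and a call is an adjusted p below 0.05. CPM carry TMM scaling, and the scores use log2 CPM with a prior count of 2. The test was checked on simulated data. Of 1.25-fold changes it called 20% between the ages in WT males and 18% between KO and WT females at 60 days. Of 1.5-fold changes it called 62% and 66%. Only 50 genes, drawn from all genes tested, were changed at each fold size. The real comparisons called more genes, such as 15.7% higher and 15.8% lower by age in WT males. The adjusted threshold thus differed, and these shares need not hold for the members. Groups follow the labels; replicate numbers follow the order of the samples. Alternatives used other scalings, no filter, DESeq2 1.42.0, limma-voom (limma 3.58.1), fewer libraries, covariates and leaving out each library.

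Named genes were the targeted gene, up to 4 called members with the smallest adjusted p per comparison and direction, members called in an interaction, the largest and smallest fold change per comparison, tissue isoforms and subunit c genes, and up to 3 leading genes of other lists. Genes named to fill out a count of 5 or fewer, those of the lists of members called in no comparison, the regulators beyond that rule, Sdhd, Cyc1, Ndufv1 and the age values of Ndufa4 in males were chosen after their values were seen. The members and lists were chosen with earlier results of these data known. The values of 1 member are not reported here.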

Additional observations from a re-analysis of the deposited data

Results flagged for a closer look

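In groups of 4, 10 of 176 sets of values had a library far from the other 3 by Dixon's criterion, which chance gives in about 1 set in 20. Sdha in KO males at 60 days stood at 433 CPM in replicate 4, with the next at 398. Ndufs6 stood at 0.258 CPM in replicate 2 of the KO females at 60 days, with the next at 4.95, and at 5.00 CPM in replicate 4 of the WT females at 60 days, with the next at 5.83. Cox6c stood at 147 CPM in replicate 2 of the KO males at 60 days, with the next at 116. Uqcrc1 stood at 245 CPM in replicate 3 of the WT males at 60 days, with the next at 210. Ndufa11 stood at 75.7 CPM in replicate 1 of the KO males at 30 days, with the next at 77.6. Among the scores, replicate 4 of the WT females at 60 days was high over all members (0.19), complex I (0.23) and complex IV (0.29). Replicate 3 of the WT males at 60 days was high in complex IV, at 0.41.

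The age difference of Uqcrc1 and Sdhb differed between WT males and females, by 0.34 each on the log2 scale (SE 0.10 and 0.11, edgeR adjusted p = 0.0354 and 0.0418). All 4 older WT males stood above all 4 younger ones for each gene.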

How the results depend on the processing

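No paired analysis was possible because the replicate numbers follow sample order and the labels pair no animals. No called value changed direction under any alternative. Library size alone changed the counts by age to 21 in WT females, 20 in KO females, 15 in WT males and 15 in KO males, and the medians to -0.0458, -0.0943, 0.0436 and 0.00605 (with TMM 0.07, 0.06, 0.20 and 0.20), so that the female medians changed sign, with -0.0361 for KO against WT males at 30 days. With DESeq2 the age-by-sex interaction called 6 members in WT and 1 in KO animals, and with no filter 1 in WT. With the libraries of 1 age alone the sex comparison called 7 (WT) and 2 (KO) at 60 days and 1 (KO) at 30 days. With the 8 libraries compared alone it called 2, 2 and 1, and the age comparison 7 in WT females and 21 in WT males. KO against WT females at 60 days gave 0 under both and 0 with the clock score as a covariate. The title number as a covariate gave 1 between the sexes in WT animals at 30 days. Leaving out 1 library gave 16 to 38 by age in WT males, 20 to 32 in KO males, 8 to 14 in WT females and 2 to 7 in KO females. It gave 7 to 24 (WT) and 3 to 10 (KO) between the sexes at 60 days, 0 to 1 in WT animals at 30 days, and 0 to 3 for KO against WT females at 60 days. The interactions gave 0 to 3 (age by sex, WT), 0 to 1 (age by sex, KO) and 0 to 1 (age by genotype, females). The median for KO against WT males at 60 days ranged from -0.16 to -0.02. Depth limits Cox4i2 most, with at most 13 reads in a library.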
